A study of Mus musculus with 91 samples.

Results

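The Frizzled receptor family was followed in the caudal lateral epiblast of the mouse embryo. Its members are the 10 genes Fzd1 to Fzd10, chosen by name from the 53379 genes of the count table, and all 10 were found there. The embryos were wild type and of the outbred MF1 strain, at the early headfold stage, around E8.0. The dissected region, which flanks the node and the primitive streak, contains axial progenitors and some nascent mesoderm. Pieces were pooled and dissociated, living cells were placed singly in wells by FACS, and Smart-seq2, which makes full-length cDNA without molecular identifiers, gave counts for 91 cells. No embryo is named for a cell. All 91 cells therefore count as 1 pool, there are no replicates, and every comparison is a description without a test.

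Frizzled proteins are receptors that cross the membrane several times and bind Wnt ligands through a cysteine-rich domain outside the cell. With the co-receptors Lrp5 and Lrp6 they stabilise beta-catenin, which acts with the Tcf and Lef factors on target genes. With other partners they act on cell movement and on the polarity of cells within a sheet. In the late primitive streak, Wnt signals are known to be required for the making of paraxial mesoderm and for the maintenance of axial progenitors.

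The cells were split by 1 pair of genes. A cell was called epiblast-like when its level of Nkx1-2, a homeobox gene of the caudal epiblast, was above that of Aldh1a2, the enzyme that makes retinoic acid in young mesoderm, and mesoderm-like otherwise. Levels are in counts per 1000000 counts of the cell (CPM). Means carry the SD over cells, a spread that says nothing of embryos. This gave 43 epiblast-like cells and 48 mesoderm-like cells. The margin was narrow in few cells. The last epiblast-like cell (well B10) had 688 CPM of Nkx1-2 and 570 CPM of Aldh1a2, and the first mesoderm-like cell (well G3) had 164 and 301 CPM. Neither had a read of Fzd7.

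Total counts ranged over 1260653 to 3927737 in epiblast-like cells and 709866 to 4439571 in mesoderm-like cells, with reads in 7302 to 9958 and 6261 to 10448 genes. The labels held against fixed markers. By the 2-fold rule used for the family, and leaving out Nkx1-2 and Aldh1a2, which set the classes, 6 of 7 epiblast markers were higher in the epiblast-like class and 7 of 7 mesoderm markers in the mesoderm-like class, where Tbx6, Msgn1 and Dll1 had reads in all 48 cells. Node, endoderm, lateral mesoderm, blood and surface ectoderm markers had a median summed level of 0 CPM in both classes. Their members read in the most cells were Grhl3 (4 epiblast-like and 15 mesoderm-like cells) and Foxf1 (0 epiblast-like and 10 mesoderm-like cells), and the endoderm gene Cer1 was read in 1 mesoderm-like cell. Of the neural list, Hes3 had reads in 39 epiblast-like cells and 1 mesoderm-like cell. For low counts, the 20 genes of the node, endoderm, blood and surface ectoderm lists had 1 to 4 reads in 1.16% of 860 gene and cell pairs in epiblast-like cells and in 0.417% of 960 pairs in mesoderm-like cells.

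Genes with a read in 3 or more cells counted as measured, 18054 in all, among them each of the 10 Frizzled genes. Class means of CPM, each with 1 CPM added, were divided, and a ratio of 2 or more in either direction was a call. Ratios are epiblast-like over mesoderm-like. By this rule 2 members were higher in epiblast-like cells, Fzd6 and Fzd9. The mesoderm-like cells had higher levels of 2 others, Fzd1 and Fzd7, and the ratio was under 2-fold for 6. Of all measured genes 8.18% were higher in epiblast-like cells and 9.55% in mesoderm-like cells, 17.7% in either direction. The median log2 ratio of the members was 0.08, beside 0.01 for all measured genes.

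Detection divided the family. Shares of cells with at least 1 read are given with an exact Clopper-Pearson interval of 95% confidence, which covers counting error only. Reads of 3 members (Fzd2, Fzd3 and Fzd10) were present in at least 50% of epiblast-like cells, and reads of 4 (the same 3 and Fzd7) in at least 50% of mesoderm-like cells, beside 42.6% and 40.9% of all measured genes. The other 6 members had reads in under 20% of the cells of each class. Only for Fzd7 did the intervals of the classes not overlap, in favour of the mesoderm-like class, a separation that 1.52% of all measured genes had in that direction, 2.24% in the other and 3.77% in either.

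**Figure D1:**
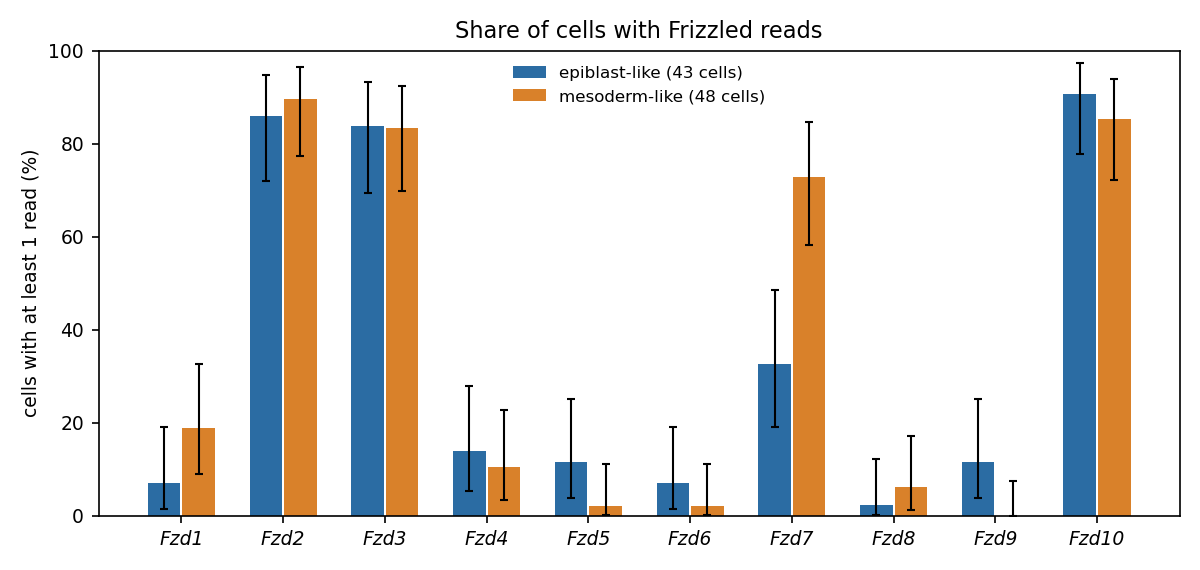
Share of the 43 epiblast-like (left bars) and 48 mesoderm-like (right bars) cells with at least 1 read of each Frizzled gene, in percent. Error bars are exact 95% intervals for counting error; those of Fzd7 (32.6% and 72.9%) do not overlap.

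Fzd1, Fzd2 and Fzd7 are close relatives, each encoded by a single exon. Fzd7 and Fzd2 are known in mouse to share roles in cell movements of the neural plate and mesoderm, and Fzd1 and Fzd2 share roles in palate and heart. Fzd7 (ENSMUSG00000041075) lies on the plus strand of chromosome 1, from 59482424 to 59486955 in GRCm38. Fzd1 (ENSMUSG00000044674) lies on the minus strand of chromosome 5, from 4753839 to 4758035, and Fzd2 (ENSMUSG00000050288) on the plus strand of chromosome 11, from 102604396 to 102608058. Because reads of close copies can be misassigned, the longest annotated transcript of each member was compared with those of the others. The longest run of identical bases was 47 for Fzd1 and Fzd7, 47 for Fzd1 and Fzd2, and 38 for Fzd2 and Fzd7, each within the coding sequence and each shorter than the reads of 75 bases. No stretch of 75 bases of the longest transcript of a Frizzled gene was present, on the same strand, in a transcript of another gene. The opposite strand was not searched, so that overlap with antisense genes was not covered. The longest run shared by the pair that was higher in mesoderm-like cells is shown in capitals inside a window of 75 bases, read on the coding strand, at chr5:4756950-4757024 (minus strand) for Fzd1 and chr1:59483330-59483404 (plus strand) for Fzd7, in GRCm38. A read that covers the whole window meets bases in lower case that differ between the genes.
Fzd1 window: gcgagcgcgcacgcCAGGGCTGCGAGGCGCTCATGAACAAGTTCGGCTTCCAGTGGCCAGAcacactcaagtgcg
Fzd7 window: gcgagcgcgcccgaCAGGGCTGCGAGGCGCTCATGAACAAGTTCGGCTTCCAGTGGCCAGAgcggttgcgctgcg

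Fzd7 had the widest gap in detection. Reads were present in 14 of 43 epiblast-like cells (32.6%, 95% interval 19.1 to 48.5%), against 35 of 48 mesoderm-like cells (72.9%, 58.2 to 84.7%). The lowest, median and highest levels were 0, 0 and 60.2 CPM in epiblast-like cells, against 0, 27.8 and 260 CPM in mesoderm-like cells. The ranges overlapped, since 13 mesoderm-like cells had no read, but at most 60.2 CPM was seen in epiblast-like cells. The mean was 7.17 ± 15.1 CPM in epiblast-like cells and 47.1 ± 58.9 CPM in mesoderm-like cells (SD, n = 43 and 48 cells), a log2 ratio of -2.56. The difference of the means was larger than the SD over epiblast-like cells and smaller than that over mesoderm-like cells. Among cells with a read the mean was 22 ± 19.7 CPM in epiblast-like cells, against 64.6 ± 60.3 CPM in mesoderm-like cells, so that the gap was present in the level of positive cells as well as in their number. Most positive cells had more than a few reads. A minimum of 5 reads left 13 epiblast-like and 33 mesoderm-like cells, and thinning every cell to 500000 counts left 13 and 35. Without each cell in turn the log2 ratio was -2.80 to -2.42.

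Fzd1 was rarer and more uneven. Reads were present in 3 epiblast-like cells (7.0%, interval 1.46 to 19.1%), at 18.1, 40.1 and 89.6 CPM, against 9 mesoderm-like cells (18.8%, 8.95 to 32.6%), with a median of 91.3 CPM among the positive cells. The means were 3.44 ± 15 CPM in epiblast-like cells and 23.1 ± 76.5 CPM in mesoderm-like cells (SD, n = 43 and 48 cells), a log2 ratio of -2.44 and a difference smaller than the SD over mesoderm-like cells. A single mesoderm-like cell (well H11) had 467 CPM and 46.5% of the 3200 Fzd1 reads of its class. Without it the log2 ratio was -1.73, and without the highest epiblast-like cell (well A10) it was -3.34. The same cell H11 had the highest Fzd7 level (260 CPM) and the highest Fzd8 level of its class (20.1 CPM), in a total of 3186405 counts and 7081 genes.

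Fzd2 was read in most cells of both classes, at levels that varied from cell to cell by about as much as the mean. Reads were present in 37 epiblast-like cells (86%, 95% interval 72.1 to 94.7%), against 43 mesoderm-like cells (89.6%, 77.3 to 96.5%). The lowest, median and highest levels were 0, 29.8 and 94.3 CPM in epiblast-like cells, against 0, 37 and 196 CPM in mesoderm-like cells. The mean was 34.2 ± 30.1 CPM in epiblast-like cells and 49.4 ± 48.7 CPM in mesoderm-like cells (SD, n = 43 and 48 cells), a log2 ratio of -0.52 and a difference smaller than the spread between cells of either class.

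The sequences before the start sites of Fzd7 and Fzd1, the members that were higher in mesoderm-like cells, are shown because Tcf and Lef factors, the nuclear end of the pathway, bind a core of CTTTG. RefSeq promoters on GRCm38.p6 matched 6 of the 10 genes (Fzd1, Fzd4, Fzd5, Fzd7, Fzd9 and Fzd10). The 250 bases before the RefSeq start are printed at chr1:59481897-59482146 (plus strand) for Fzd7 and at chr5:4758217-4758466 (minus strand) for Fzd1, with every CTTTG and its reverse complement CAAAG in capitals.
Fzd7 promoter: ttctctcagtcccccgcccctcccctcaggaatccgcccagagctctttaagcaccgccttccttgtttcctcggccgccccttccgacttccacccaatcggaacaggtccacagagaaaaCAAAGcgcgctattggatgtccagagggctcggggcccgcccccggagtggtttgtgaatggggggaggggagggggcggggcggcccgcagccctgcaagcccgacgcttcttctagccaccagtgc
Fzd1 promoter: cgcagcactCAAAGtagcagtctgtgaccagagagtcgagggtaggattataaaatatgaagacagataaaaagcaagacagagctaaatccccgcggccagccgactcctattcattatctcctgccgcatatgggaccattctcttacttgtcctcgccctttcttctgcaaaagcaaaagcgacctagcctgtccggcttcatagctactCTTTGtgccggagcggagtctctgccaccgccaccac

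The core was present once in the Fzd7 window, 128 bases before the start, and at 241 and 37 bases before the start in the Fzd1 window. It was also present once in the Fzd10 window and absent from those of Fzd4, Fzd5 and Fzd9. The RefSeq starts differ from the gene coordinates given in this report. By those coordinates the Fzd10 window and most of the Fzd9 window lie inside the genes, and the Fzd7 and Fzd1 windows end short of theirs. In all, 48.6% of 32851 promoter windows of 250 bases hold CTTTG or CAAAG, so that a match describes the letters and no more. A GC box, GGGCGG or CCGCCC, was present at 6 places in the Fzd7 window and at none in the Fzd1 window, beside 32.7% of all windows with at least 1. The T-box half-site AGGTGT or ACACCT was in none of the 6 windows, beside 11.8% of all windows.

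Fzd3 and Fzd6 are known in mouse for tissue polarity, in which they guide axons, orient hair follicles and act together in neural tube closure. Fzd3 (ENSMUSG00000007989) spans 65192449 to 65262463 on the minus strand of chromosome 14. Reads were found in 36 epiblast-like cells (83.7%, 95% interval 69.3 to 93.2%), against 40 mesoderm-like cells (83.3%, 69.8 to 92.5%). Its lowest, median and highest levels were 0, 88.2 and 763 CPM in epiblast-like cells, against 0, 77.2 and 627 CPM in mesoderm-like cells. Cells at both ends of the range were present in each class, and the ranges overlapped almost wholly. The mean was 113 ± 137 CPM in epiblast-like cells and 125 ± 136 CPM in mesoderm-like cells (SD, n = 43 and 48 cells), a log2 ratio of -0.14. A noncoding RNA gene on its strand and an antisense pseudogene (Gm27263 and Gm9086) overlap Fzd3, and whether the counting used strand is not stated in the sources used here, so that reads of the antisense gene cannot be told apart.

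Fzd6 (ENSMUSG00000022297, chromosome 15, 39006034 to 39038188, plus strand) was seen in few cells. It had 22.3, 37.3 and 71.4 CPM in 3 epiblast-like cells (wells F9, C5 and E5), from 277 reads, against 1 read in 1 mesoderm-like cell. The ratio of pooled CPM was 332, with a counting interval of 59.1 to 13156 that covers reads and not cells. The log2 ratio of means with 1 CPM added was 2.01. Without the highest cell, E5, the log2 ratio was 1.27. The intervals of the shares, 1.46 to 19.1% in epiblast-like cells and 0.053 to 11.1% in mesoderm-like cells, overlapped. The noncoding gene Gm26704 overlaps it on the other strand.

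**Figure D2:**
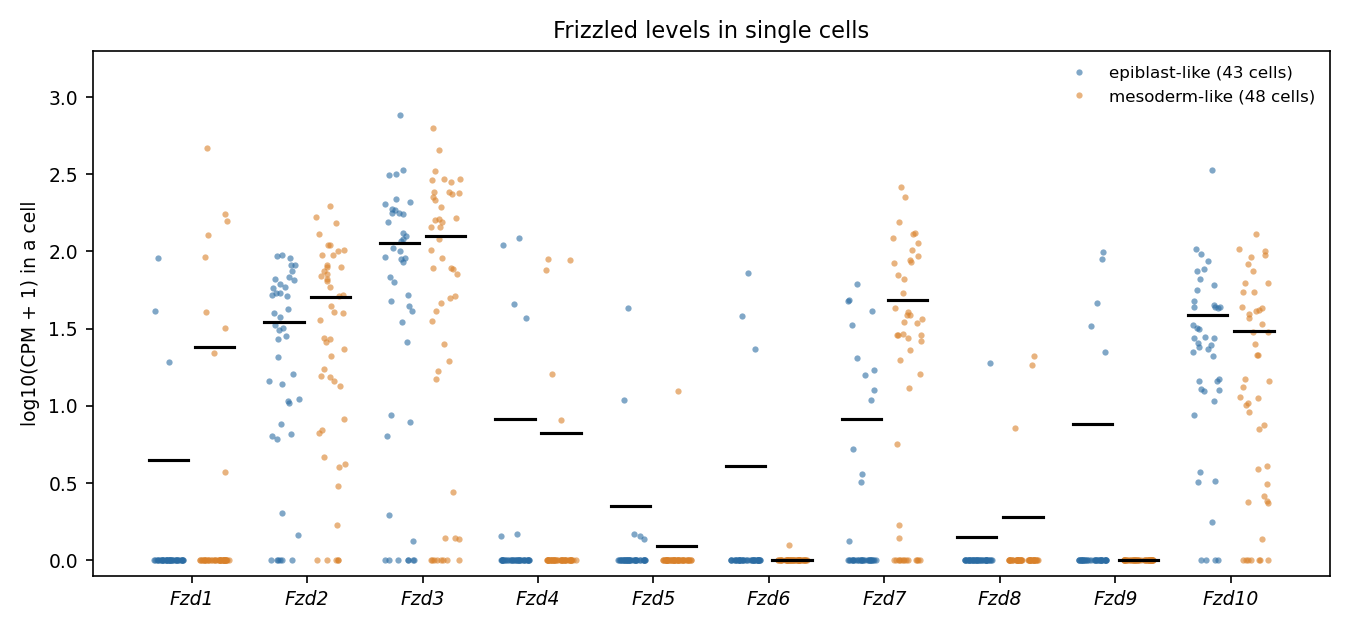
Level of each Frizzled gene in every cell, as log10(CPM + 1) on the vertical axis, with epiblast-like cells left and mesoderm-like cells right of each gene's tick. Each point is a cell and each black line the mean CPM of the class on the same scale; Fzd7 and Fzd1 have more cells with high values among mesoderm-like cells, and Fzd9 has points above 0 in epiblast-like cells only.

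Fzd4, Fzd9 and Fzd10 form another branch. Fzd10 (ENSMUSG00000081683, chromosome 5, 128600844 to 128604093, plus strand), known in chick as a Wnt receptor of the dorsal neural tube, was the member with reads in the most epiblast-like cells. Reads were present in 39 epiblast-like cells (90.7%, 95% interval 77.9 to 97.4%), against 41 mesoderm-like cells (85.4%, 72.2 to 93.9%). Its lowest, median and highest levels were 0, 24.5 and 337 CPM in epiblast-like cells, against 0, 13.7 and 129 CPM in mesoderm-like cells. The mean was 37.7 ± 53.9 CPM in epiblast-like cells and 29.4 ± 33.7 CPM in mesoderm-like cells (SD, n = 43 and 48 cells), a log2 ratio of 0.34. Without the single highest epiblast-like cell (well G9) the log2 ratio was 0.05.

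Fzd9 (ENSMUSG00000049551, chromosome 5, 135248938 to 135251230, minus strand), known in mouse for roles in the hippocampus and in bone formation, was seen in epiblast-like cells only. It had 21.3, 32.1, 45.3, 87.8 and 97.9 CPM in 5 epiblast-like cells (11.6%, interval 3.89 to 25.1%), from 49 to 202 reads a cell. It had reads in 0 of 48 mesoderm-like cells, which allows a share of up to 6.25% by the rule of 3 counts and up to 7.40% by the exact interval. The counting interval of the ratio of pooled CPM, of the kind given for Fzd6, began at 209. With the mesoderm-like cells set at a floor of 3 reads over the group, and the epiblast-like count taken as exact, the ratio was 257. Both values count reads, which can come from 1 molecule many times, and are no bound over cells. The log2 ratio of 2.93 depends on the 1 CPM that was added and is no bound. The 38 other epiblast-like cells also had no read, and the intervals of the 2 shares overlapped.

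Fzd4 (ENSMUSG00000049791, chromosome 7, 89404355 to 89413134, plus strand), the receptor of Norrin in retinal vessels, had reads in 6 epiblast-like cells and 5 mesoderm-like cells. In epiblast-like cells 4 of the 6 had 36.2 to 121 CPM and the others a single read, against 7.07 to 88 CPM in the 5 mesoderm-like cells. The mean was 7.26 ± 25.6 CPM in epiblast-like cells and 5.65 ± 20.4 CPM in mesoderm-like cells (SD, n = 43 and 48 cells). The log2 ratio of 0.31 was -0.26 without well G10 and -0.10 after thinning, and no direction was assigned.

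Fzd5 and Fzd8, known in mouse for the vessels of the yolk sac and placenta (Fzd5) and for the eye (both), form the branch with the lowest summed RPKM. Fzd5 (ENSMUSG00000045005, chromosome 1, 64730558 to 64737751, minus strand) had reads in 5 epiblast-like cells, 3 of them with a single read, and in 1 mesoderm-like cell. Its mean was 1.24 ± 6.54 CPM in epiblast-like cells and 0.238 ± 1.65 CPM in mesoderm-like cells (SD, n = 43 and 48 cells), a log2 ratio of 0.86. This ratio was 1.16 without the only positive mesoderm-like cell (well B12) and 0.04 without the highest epiblast-like cell (well D5). The gene Gm38058 overlaps Fzd5 on the other strand. Fzd8 (ENSMUSG00000036904) had 18 CPM in 1 epiblast-like cell, against 6.18, 17.4 and 20.1 CPM in 3 mesoderm-like cells, a log2 ratio of -0.43. Both genes were at 0 in the median cell of each class.

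To compare levels between genes, counts were also divided by the length of the annotated exons (RPKM, per kilobase and per 1000000 counts). The order of mean RPKM in epiblast-like cells was Fzd10 (11.6 ± 16.6), Fzd2 (9.33 ± 8.21), Fzd3 (8.80 ± 10.7), Fzd9 (2.88 ± 9.26), Fzd7 (1.58 ± 3.34), Fzd4 (1.08 ± 3.81), Fzd1 (0.819 ± 3.57), Fzd6 (0.632 ± 2.60), Fzd5 (0.179 ± 0.946) and Fzd8 (0.070 ± 0.458). In mesoderm-like cells it was Fzd2 (13.5 ± 13.3), Fzd7 (10.4 ± 13), Fzd3 (9.74 ± 10.6), Fzd10 (9.06 ± 10.4), Fzd1 (5.51 ± 18.2), Fzd4 (0.841 ± 3.04), Fzd8 (0.152 ± 0.649), Fzd5 (0.034 ± 0.238), Fzd6 (0.001 ± 0.008) and Fzd9 (0). Neighbours in either order differed by less than the larger of their SDs over cells. Fzd7 had 4 members above it in epiblast-like cells and 1 in mesoderm-like cells. Fzd3, the highest member in CPM in both classes, had 2 members above it per length, since its exons span 12804 bases against 3250 for Fzd10.

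By branch, the summed RPKM of Fzd1, Fzd2 and Fzd7 was 11.7 ± 9.25 in epiblast-like cells and 29.4 ± 27 in mesoderm-like cells (SD, n = 43 and 48 cells). This was 31.7% of all Frizzled RPKM in epiblast-like cells, against 59.7% in mesoderm-like cells. At least 1 of these 3 genes had reads in 39 epiblast-like cells and in all 48 mesoderm-like cells. Fzd4, Fzd9 and Fzd10 summed to 15.6 ± 21.1 RPKM in epiblast-like cells and 9.90 ± 11.3 RPKM in mesoderm-like cells, or 42.1% and 20.1% of the Frizzled RPKM. Fzd3 and Fzd6 summed to 9.44 ± 10.8 RPKM in epiblast-like cells and 9.74 ± 10.6 RPKM in mesoderm-like cells. Fzd5 and Fzd8 summed to 0.249 ± 1.04 RPKM in epiblast-like cells and 0.187 ± 0.683 RPKM in mesoderm-like cells. Each of these differences was smaller than the larger of the SDs over cells.

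The receptor repertoire of a cell was counted as the number of Frizzled genes with a read. It was 0 to 6 with a median of 3 in epiblast-like cells and 2 to 6 with a median of 4 in mesoderm-like cells, with means of 3.47 ± 1.26 and 3.71 ± 1.05 (SD, n = 43 and 48 cells). Medians were unchanged after thinning to 500000 counts. When a gene needed at least 10 CPM in place of a read, the median was 3 in each class. The difference of the means was smaller than the spread between cells. The most frequent number was 3 in epiblast-like cells (14 cells, 32.6%) and 4 in mesoderm-like cells (22 cells, 45.8%). A single epiblast-like cell (well F7) had no Frizzled read in 2587739 counts and 7746 genes, and no cell had exactly 1 Frizzled gene. With 6 genes each, epiblast-like cells F9, C5 and E9 and mesoderm-like cells E11, B12 and H11 had the largest repertoires. All of these held Fzd2, Fzd3 and Fzd10. The Spearman correlation of the number with the total count was -0.20 over 43 epiblast-like cells and 0.35 over 48 mesoderm-like cells, which share 1 plate and 1 pool, and the part of depth in the number was not tested beyond the thinning.

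**Figure D3:**
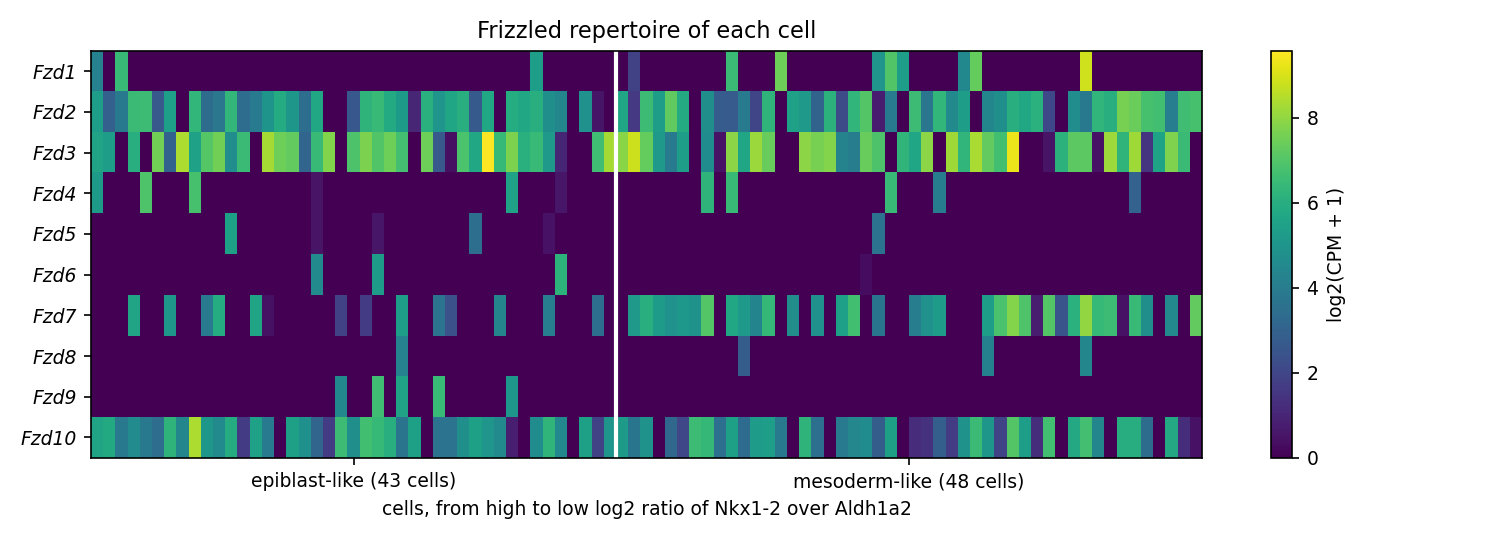
Level of each Frizzled gene (rows) in every cell (columns) as log2(CPM + 1), from dark (0) to yellow. Cells are ordered by the log2 ratio of Nkx1-2 over Aldh1a2 from high to low, with the 43 epiblast-like cells left of the white line; Fzd2, Fzd3 and Fzd10 are filled in most columns, and Fzd7 in 14 columns left and 35 columns right of the line.

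The combination of genes varied from cell to cell. There were 38 different combinations in the 91 cells, 22 in epiblast-like cells, 21 in mesoderm-like cells and 5 in both, and 27 of them were seen in a single cell. Fzd2, Fzd3, Fzd7 and Fzd10, with no other member, was the combination of 8 epiblast-like cells (18.6%) and 18 mesoderm-like cells (37.5%). Fzd2, Fzd3 and Fzd10 without Fzd7 or another member was that of 9 epiblast-like cells (20.9%) and 5 mesoderm-like cells (10.4%). Reads of all 3 of Fzd2, Fzd3 and Fzd10, whatever else the cell held, were present in 29 epiblast-like cells (67.4%, 95% interval 51.5 to 80.9%), against 33 mesoderm-like cells (68.8%, 53.7 to 81.3%). The same 3 together with Fzd7 were present in 11 epiblast-like cells (25.6%, 13.5 to 41.2%) and 26 mesoderm-like cells (54.2%, 39.2 to 68.6%), and these intervals overlap. One or more of the 6 rarer members had reads in 15 epiblast-like cells (34.9%) and 15 mesoderm-like cells (31.3%).

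The Frizzled gene with the highest RPKM of a cell was most often Fzd10 in epiblast-like cells (15 cells, 34.9%, interval 21 to 50.9%) and Fzd2 in mesoderm-like cells (18 cells, 37.5%, 24 to 52.6%). Fzd10 led in 5 mesoderm-like cells (10.4%, 3.47 to 22.7%), and Fzd2 led in 11 epiblast-like cells (25.6%, 13.5 to 41.2%). Fzd7 led in 0 epiblast-like cells, which had it in 14, and in 8 mesoderm-like cells. Fzd1 led in 1 epiblast-like cell and in 6 mesoderm-like cells, 6 of the 9 that had its reads. Fzd9 led in 3 of its 5 epiblast-like cells.

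**Figure D4:**
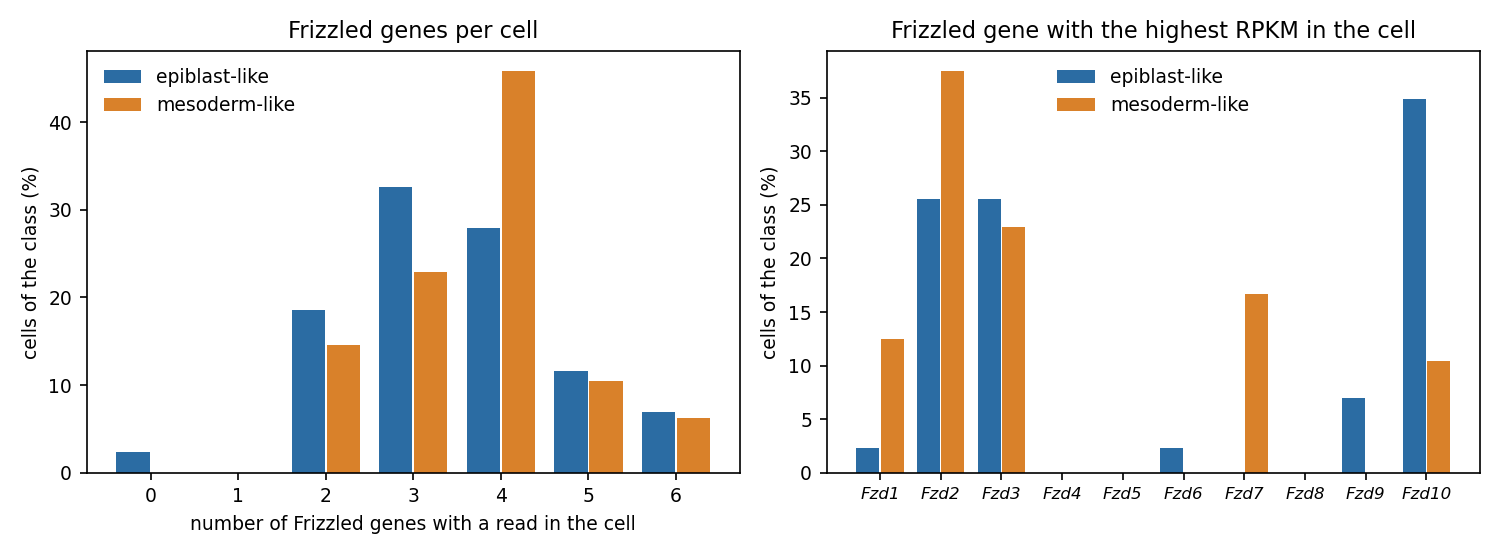
Left, number of Frizzled genes with a read in a cell, and right, Frizzled gene with the highest RPKM in the cell, both as percent of the cells of a class (43 epiblast-like, blue; 48 mesoderm-like, orange). The peak is at 3 genes in epiblast-like and 4 in mesoderm-like cells, and the leading gene is most often Fzd10 in epiblast-like and Fzd2 in mesoderm-like cells.

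The 4 frequent members were only weakly correlated with each other within a class. The Pearson correlation of log2(CPM + 1) for the 6 pairs of Fzd2, Fzd3, Fzd7 and Fzd10 was -0.11 to 0.16 over 43 epiblast-like cells and -0.10 to 0.21 over 48 mesoderm-like cells, all weak in counts of this sparsity. All 14 epiblast-like cells with Fzd7 also had Fzd10, which 25 of the other 29 had too. The 3 genes whose level was most like each member, out of 9121 protein-coding genes with reads in at least 20% of cells and after the class mean was taken off, reached correlations of 0.37 to 0.44 over the 91 cells, which share 1 plate. They were Wdr70, Phf23 and BC055324 for Fzd2, Ssb, Usp4 and Mtmr10 for Fzd3, Polr2g, Rbbp6 and Acp6 for Fzd7, and Wasl, Hoxb4 and Nsd2 for Fzd10. With Fzd7, Rbbp6 had -0.01 in epiblast-like cells and 0.53 in mesoderm-like cells, and Acp6 had 0.12 and 0.49. Every other gene named here had 0.27 or more in each class. These are the highest of 9121 values, and what unrelated genes reach was not tested.

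Within the epiblast-like class, cells were split by reads of both T and Sox2, the pair that marks neuromesodermal progenitors. Sox2 was low, with a median of 0.965 CPM in epiblast-like cells. Reads alone do not mark progenitors, since Sox2 was also read in 26 and T in 47 of the 48 mesoderm-like cells. The epiblast-like cells with reads of both had Fzd10 in 25 of 25 at 49.7 ± 64.9 CPM, against 14 of 18 other cells at 20.9 ± 27.1 CPM. They had Fzd7 in 7 of 25, against 7 of 18. Within the mesoderm-like class, the 20 cells with reads of Snai1, a driver of the epithelial to mesenchymal transition, had Fzd7 in 17 at 53.9 ± 55.8 CPM, against 18 of 28 other cells at 42.3 ± 61.6 CPM. Each of these differences in level was smaller than the larger SD over cells, and that of Fzd10 was larger than the SD over the 18 other cells. The Fzd10 mean of the 25 cells includes well G9, the highest cell at 337 CPM, and was not computed without it. The median Fzd10 level was 27.1 CPM in the 25 cells, against 11.5 CPM in the 18.

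The partners of the Frizzled receptors were described from lists of the pathway, each by its count and its median log2 ratio beside the 0.01 of all measured genes. For the counts, the shares over all measured genes were 8.18% higher in epiblast-like cells, 9.55% in mesoderm-like cells and 17.7% in either direction. The counts of the co-receptors and of the turnover genes were near these shares. Of 11 measured Wnt ligands 2 were higher in epiblast-like cells, 5 in mesoderm-like cells and 4 in neither, with a median of -0.58. Those higher in epiblast-like cells were Wnt8a (119 ± 102 CPM, against 31 ± 48.4 CPM in mesoderm-like cells) and Wnt5b (50.2 ± 73.4 CPM, against 21 ± 35.1 CPM). Wnt8a is also among the epiblast markers used above. The 5 higher in mesoderm-like cells, Wnt2, Wnt2b, Wnt6, Wnt7a and Wnt10a, each had reads in under 50% of those cells and were named after their values were seen. Wnt2 had reads in 0 of 43 epiblast-like cells and 22 of 48 mesoderm-like cells. Wnt3a, the ligand of the paraxial mesoderm and tail bud, had 28.8 ± 58.8 CPM in epiblast-like cells and 31.6 ± 44.9 CPM in mesoderm-like cells, and was likewise chosen afterwards.

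Of 9 measured co-receptors and other Wnt receptors 7 differed by less than 2-fold, with a median of -0.46. The exceptions were cell surface proteoglycans of the glypican family. Gpc4 was higher in epiblast-like cells (46 ± 55.6 CPM, against 8.54 ± 28.5 CPM in mesoderm-like ones), and Gpc3 was higher in mesoderm-like cells, with 361 ± 222 CPM in epiblast-like cells and 2050 ± 705 CPM in mesoderm-like cells. Among the 12 measured genes of receptor turnover and Wnt export, 10 differed by less than 2-fold, with a median of -0.10. Among these, Znrf3, the ubiquitin ligase that removes Frizzled from the surface, had 191 ± 151 CPM in epiblast-like cells and 233 ± 159 CPM in mesoderm-like cells. Rspo3, the secreted ligand that holds Znrf3 back through Lgr receptors, had 13.6 ± 39 CPM in epiblast-like cells and 336 ± 199 CPM in mesoderm-like cells, with reads in 16 epiblast-like cells and in all 48 mesoderm-like cells.

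Secreted antagonists had the lowest median of these lists, -1.23. Of 13 measured, 2 were higher in epiblast-like cells and 7 in mesoderm-like cells. Several of them resemble the part of Frizzled that binds Wnt. Of these, Sfrp2 was higher in epiblast-like cells (19.7 ± 24.3 CPM, against 8.22 ± 18.5 CPM in mesoderm-like cells), and Frzb was higher in mesoderm-like cells, with 70.5 ± 106 CPM in epiblast-like cells and 306 ± 315 CPM in mesoderm-like cells. Draxin, which binds the Lrp6 co-receptor, had reads in 1 epiblast-like cell and 26 mesoderm-like cells. Tspan12, a partner of Fzd4 in Norrin signalling, differed by less than 2-fold, as did Reck, which stood in the same list. Norrin itself (Ndp) had reads in 0 cells of either class.

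**Figure D5:**
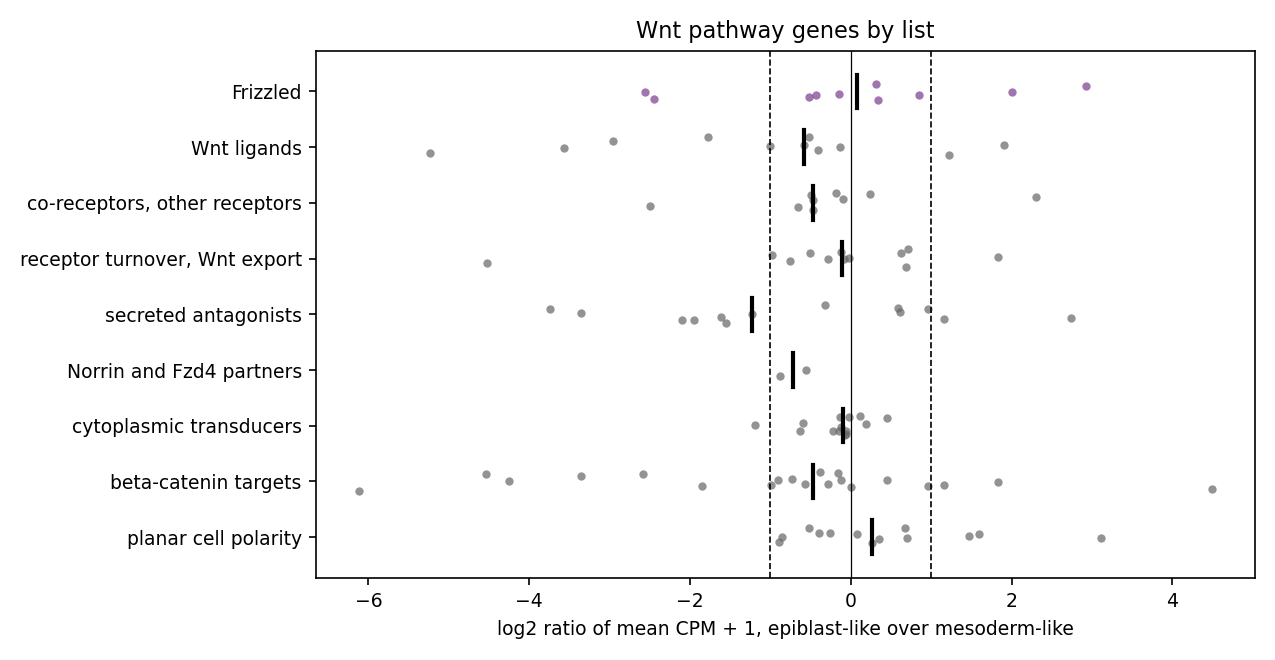
Log2 ratio of mean CPM + 1, epiblast-like over mesoderm-like, for each measured gene of the Frizzled family (purple, top row) and of 8 Wnt pathway lists (grey). Black bars are medians and dashed lines mark the 2-fold rule; Frizzled points lie on both sides, and the secreted antagonists have the median farthest to the left.

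Inside the cell the lists were split by class in different ways. Of 14 cytoplasmic transducers 13 differed by less than 2-fold (median -0.09), among them the scaffold Dvl2 and beta-catenin itself, Ctnnb1, at 420 ± 168 CPM in epiblast-like cells and 426 ± 196 CPM in mesoderm-like cells. Gsk3a, a kinase that marks beta-catenin for destruction, was the exception, at 1.82 ± 3.51 CPM in epiblast-like cells and 5.44 ± 7.53 CPM in mesoderm-like cells. Of 20 beta-catenin targets 3 were higher in epiblast-like cells and 6 in mesoderm-like cells (median -0.47). Sp8 was higher in epiblast-like cells (784 ± 366 CPM, against 351 ± 270 CPM), and Lef1 was higher in mesoderm-like cells, with 61.5 ± 51.9 CPM in epiblast-like cells and 374 ± 211 CPM in mesoderm-like cells. Lef1, Msgn1, Tbx6 and Dll1 of this list are also mesoderm markers, and Dkk1, Notum, Lgr5, Rnf43 and Znrf3 also stand in other lists. Axin2, a widely used target, had 53.5 ± 38.7 CPM in epiblast-like cells and 79.9 ± 53.3 CPM in mesoderm-like cells. Planar cell polarity is the branch in which Fzd3 and Fzd6 act, and of its 13 genes 3 were higher in epiblast-like cells and 0 in mesoderm-like cells (median 0.26). They were Prickle1 (113 ± 130 CPM, against 37 ± 84 CPM in mesoderm-like ones) and, named after their values were seen, Celsr1 and Celsr2. Without the highest cell of each class, 3 polarity genes were higher in epiblast-like cells and 3 in mesoderm-like cells. From RPKM with 1 RPKM added these counts were 1 and 0. Among the partners with values given here, the difference of means was larger than the SD over cells of each class for Gpc3, Rspo3, Sp8 and Lef1, and smaller than at least 1 of the SDs for the rest.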

How the data were processed

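The authors aligned Smart-seq2 reads of 75 bases from single sorted cells to GRCm38 (mm10) with HISAT2 and counted reads per gene with featureCounts. The deposited values are these raw counts for 91 cells and 53379 genes. The sources used here state neither the strand setting nor the annotation. A symbol was found for 53274 identifiers, every column matched a cell, and no pair of cells had equal counts. No cell was removed, and doublets were left to the sort.

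Python 3.11.15 with numpy 2.4.6, pandas 2.3.3 and scipy 1.17.1 gave CPM, and RPKM from union exon lengths of GENCODE for GRCm38. Smart-seq2 reads can come from 1 molecule many times, so that intervals cover counting error only. The fold rule was tested on simulated data, with folds set only in genes with a mean of at least 10 CPM. Recovery of a fold was not tested for sparser genes, among them Fzd6 and Fzd9. Members, lists and alternatives were chosen with earlier results of these data known. The rule for named genes took the 10 Frizzled genes, Nkx1-2, Aldh1a2, the 3 genes most like each frequent member and, per list and in each direction, the 4 or fewer largest changes that passed 2-fold and were read in 50% or more of the higher class. Further examples (Lrp6, Znrf3, Ctnnb1, Dvl2, Axin2 and others) and wells were picked after their values were seen. Alternatives covered scaling, thinning, pseudocount, filters, read minimum and the class rule.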

Additional observations from a re-analysis of the deposited data

How the results depend on the processing

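Fzd7 and Fzd1 passed the 2-fold rule in favour of mesoderm-like cells under all 10 alternatives, with log2 ratios of -2.70 to -1.73 and -2.72 to -1.30. The alternatives that change the filter alter only which genes count as measured. They could not move the ratio of any gene, here or in the counts of alternatives below. The number of members higher in epiblast-like cells was 2 in the report, 3 after thinning and 3 with 0.1 CPM added to the means. It was 1 from RPKM, 0 with 10 CPM added and 0 among genes with reads in at least 10 cells, a filter that removes Fzd6 and Fzd9. For RPKM 1 RPKM was added, which is more than 1 CPM for a gene with exons over 1 kilobase. Division by length leaves the ratio of a gene unchanged, so that this alternative acts through the amount added. With 10 CPM added, 6 genes of the pathway lists in place of 11 were higher in epiblast-like cells and 12 in place of 20 in mesoderm-like cells. With 0.1 CPM added they were 14 and 25, and without the highest cell of each class 12 and 28. The log2 ratio was 0.38 to 4.90 for Fzd6 (at least 2-fold in 7 of 9 alternatives) and 0.73 to 6.07 for Fzd9 (8 of 9). Fzd2, Fzd3 and Fzd10 differed by less than 2-fold in all 10. Classes drawn from 7 other markers of each kind moved 1 cell. Fzd7 reads were present in 20.9 to 33.3% of epiblast-like cells and 66.7 to 73.3% of mesoderm-like cells. Of 426 values recomputed under the alternatives 369 stayed within a set tolerance and 57 moved beyond it. The tolerance was the counting interval or a small margin for ratios, the interval for shares, the SD for medians and a fixed fold for counts. It was wide for sparse members and for counts. Fzd6 at 0.38 and at 4.90, beside 2.01 in the report, and 28 pathway genes in place of 20 were within it. Leaving out each cell in turn was added after the data were seen. No paired analysis was possible because the cells form 1 pool with no replicate numbers across classes. With 1 pool, the spread between embryos is unknown, and members seen in 1 to 9 cells of a class rest on those cells.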
